A study of Mus musculus with 16 samples.

Results

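The 1429 regions described here gained H3K27ac peaks between the embryonic stages E12.5 and E14.5 of the mouse small-intestinal epithelium and had them in both adult cell types profiled. They were chosen from the peak calls themselves. Merging the overlapping or touching peaks of the 8 libraries gave 79482 regions, and a library had a region when at least 1 bp of its peaks lay in it. The 1429 regions were present in both libraries of E14.5, of adult intestinal stem cells (ISC) and of enterocytes, and in neither E12.5 library. They are 1.80% of all merged regions. Their presence in 6 libraries and absence in 2 is thus how they were selected and not a finding.

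H3K27ac is the acetylation of lysine 27 on histone H3. It is deposited mainly by the acetyltransferases p300 and CBP and is found at active promoters and enhancers, while an inactive element usually lacks it. At about the stages compared here the pseudostratified epithelium of the embryonic mouse gut begins to be remodelled into a columnar layer with villi. In the adult, Lgr5-positive stem cells at the crypt base renew the epithelium, and enterocytes are the absorptive cells of the villus.

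The 4 groups had 2 libraries each, described by the series as biological duplicates, and all carried the strain label mixed C57BL/6 CD1. E12.5 and E14.5 cells were sorted from embryonic small intestine by EpCAM, which marks epithelial cells, after exclusion of cells with CD31 (endothelium), CD45 (leukocytes) or the dead-cell dye DAPI. ISC and enterocytes came from P60 animals, which the protocol describes as Lgr5EGFP-Cre-ERT males. ISC were the cells with high EGFP from the Lgr5 allele. Enterocytes were taken by the same EpCAM-positive gate as the embryonic cells, which names no marker that parts absorptive from other epithelial cells. The protocol collects villi and crypts separately but describes digestion and staining after the crypt step, so it does not make clear which fraction gave the enterocytes. The embryos' sex and the number of animals behind a library are not given in the sources used here. No treatment is listed. Each region is given by its position on the mouse build mm9. The gene and promoter tables at hand are on another build, so regions carry no gene names or sequences and the sorted cells could not be checked against marker genes.

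Each library was compared by the authors with its own input, and each list of peaks was called separately. The 8 ChIP libraries held 34.6 to 54.6 M tags, the most in E14.5 replicate 2 and the fewest in enterocyte replicate 2. The lists held 35614 to 52510 peaks and covered 38.8 to 76.1 Mb. ISC replicate 2 covered 76.1 Mb against 51.2 Mb in ISC replicate 1, and each enterocyte library covered 38.8 Mb. Covered length is used below as the measure of a region, that is, the length in kb of a library's peaks within it. It shows how far the called signal extends and not its height. A region without a peak may still carry acetylation under the calling threshold.

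The 1429 regions were 23.0% of the 6210 regions that both E14.5 libraries and no E12.5 library had. Of the other gained regions, 1036 (16.7%) were in both ISC libraries and no enterocyte library, and 116 (1.87%) were in both enterocyte libraries and no ISC library. No adult library had 2252 of them (36.3%), and 1377 (22.2%) were in only 1 library of an adult pair. Gained regions present in a single adult cell type were thus mostly in ISC, whose libraries covered 51.2 and 76.1 Mb against 38.8 Mb in each enterocyte library. The part of that gap in these counts was not tested.

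**Figure D1:**
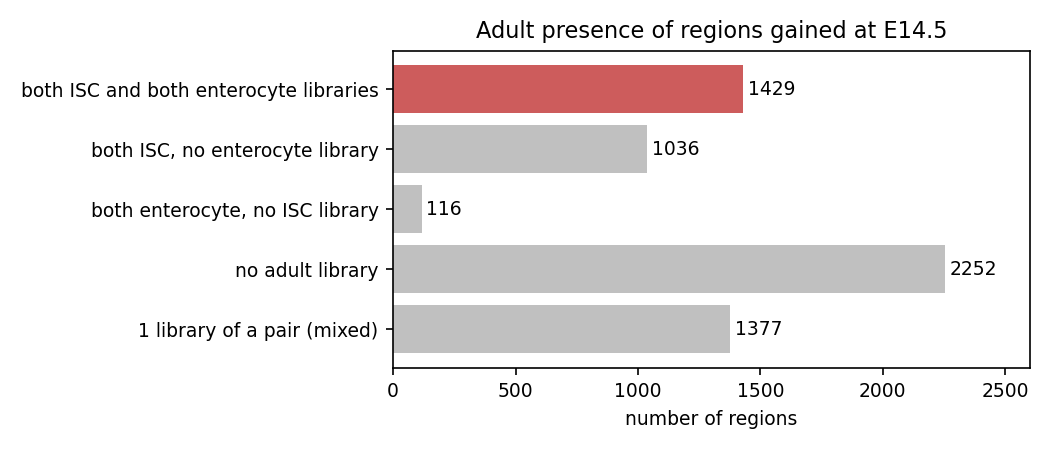
Number of regions (horizontal axis) gained at E14.5, by the adult libraries that had them. The 1429 regions in both ISC and both enterocyte libraries are in red, above 1036 in ISC alone, 116 in enterocytes alone, 2252 in no adult library and 1377 in 1 library of a pair.

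The regions present in both adult cell types had the longest peaks at E14.5 among these classes. No stage between E14.5 and P60 was profiled, so a region called kept below is one present in the later group. The median covered length at E14.5 was 1.08 and 0.914 kb in replicates 1 and 2 for the 1429 regions. It was 0.795 and 0.653 kb for the regions kept in ISC alone, 0.578 and 0.467 kb for those kept in enterocytes alone, and 0.468 and 0.394 kb for those in no adult library. Their peaks also ranked higher within the E14.5 lists. A region's strongest peak had a median percentile, by −log10 q within its list, of 48.1 and 44.0 in the 1429 regions and of 29.9 and 26.2 in the regions without adult peaks. These values come from libraries that took part in the choice of the classes, so they are given as a description.

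The merged regions had a median length of 2.46 kb, with a range of 0.471 to 14.3 kb and an interquartile range of 1.74 to 3.495 kb. The covered length per region had a median of 1.08 and 0.914 kb in E14.5 replicates 1 and 2, 1.42 and 2.11 kb in the ISC replicates, and 1.54 and 1.49 kb in the enterocyte replicates. Each of the 4 adult medians lay above both E14.5 medians. The E14.5 libraries held 38.6 and 54.6 M tags and the adult libraries 34.6 to 42.2 M, and the part of depth in these lengths was not tested.

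**Figure D2:**
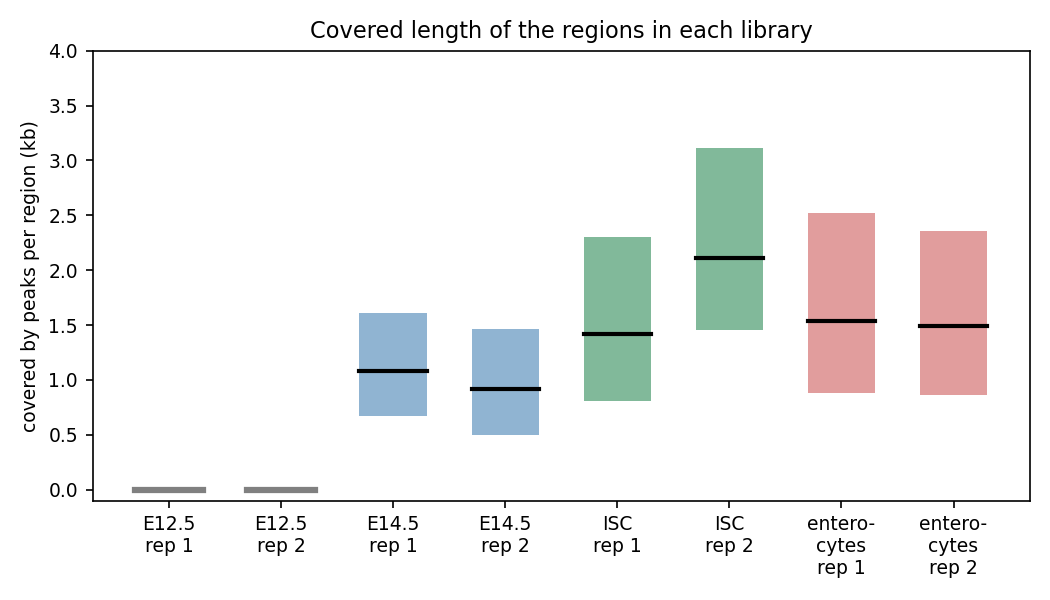
Length covered by peaks per region (kb, vertical axis) in each of the 8 libraries, for the 1429 regions. Black lines are medians and boxes the interquartile range; the E12.5 libraries are at 0 by the rule, and the E14.5 medians (1.08 and 0.914 kb) lie below the 4 adult medians (1.42 to 2.11 kb).

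The regions took a growing share of each library's acetylated territory. They held 2.78% and 2.74% of the total covered length at E14.5, 5.07% and 4.84% in ISC, and 7.11% and 6.87% in enterocytes. The 3 pairs of replicates did not overlap in this share. As absolute lengths, the regions held 1810 and 1559 kb at E14.5, then 2596 and 3681 kb in ISC, and 2758 and 2667 kb in enterocytes. The enterocyte lengths lay between those of the ISC replicates. The share in enterocytes was therefore above that in ISC while the summed length was not, since the enterocyte lists covered less of the genome.

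The regions were mid-ranked at E14.5 and stood higher within the adult lists. The median percentile of a region's strongest peak was 48.1 and 44.0 at E14.5, 57.9 and 68.7 in ISC, and 63.7 and 59.1 in enterocytes. The authors' fold enrichment at that peak had a median of 5.40 and 4.67 at E14.5, 6.15 and 9.84 in ISC, and 7.26 and 6.56 in enterocytes. The lists differ in length, so these ranks describe the place of the regions in each list and show no change by themselves. The strongest peak was at or above the 50th percentile of its list in both E14.5 libraries for 474 regions (33.2%), in both ISC libraries for 917 (64.2%) and in both enterocyte libraries for 853 (59.7%). In all 6 libraries this held for 273 regions (19.1%).

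Acetylation was compared between groups by fitting log2(scaled covered bp + 500) with limma over all 53123 regions that had a peak in at least 2 libraries. Lengths were scaled to an equal total covered length per library, and regions were called at an adjusted p under 0.05 (Benjamini-Hochberg). All 1429 regions entered the fit. The rule requires a peak in both groups of each comparison below but does not fix its length. Asking for no E12.5 peak and for peaks in every adult library can still favour short E14.5 and long adult peaks. How far it did was not tested. All regions tested also include regions that lack a peak in a group compared. Of the 2252 regions of E14.5 alone, 99.9% were called lower in ISC and 99.9% in enterocytes. The shares over all regions tested are therefore a scale and not a like set. The 3 comparisons share libraries with each other. Because the 1429 regions are at 0 in both E12.5 libraries, those libraries add no spread to their fit, so the counts from a fit of the other 6 libraries alone are given too. The SE and adjusted p of single regions below come from the 8 libraries and may overstate precision. With the 6 alone, all 35 calls of named regions that were rechecked held, with a largest limma adjusted p of 0.0426. That of chr1:82827507-82830212 in ISC against E14.5 rose from 0.000147 to 0.000596.

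Set against E14.5, more regions were called higher than lower in ISC, and most were not called. ISC exceeded E14.5 in 616 of the 1429 regions (43.1%) and fell below it in 36 (2.52%), while 777 were not called. Over all regions tested, 16.1% were called higher and 19.7% lower. The median log2 change was 0.47 (0.46 to 0.50 over the 4 pairs of libraries), against 0 over all regions tested. Here and below the pairs share libraries and the lengths are scaled to equal totals, so this range is not an error of the median. Over other settings the median ran from 0.36 with 1000 bp added to 0.85 with only peaks of −log10 q of at least 10. With the 6 libraries alone, 557 were higher and 30 lower, against 18.1% and 23.8% of all regions tested. As deposited, without scaling, both ISC libraries exceeded both E14.5 libraries in 874 regions and lay below both in 86, against 24.9% and 29.2% of all regions tested. The count of lower regions rests on single libraries: it was 16 and 14 without E14.5 replicate 1 or 2, 22 without ISC replicate 1 and 58 without ISC replicate 2.

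In enterocytes, 946 regions (66.2%) were higher and 36 (2.52%) lower than at E14.5, and 447 were not called. Over all regions tested, 19.0% were higher and 31.7% lower. The median log2 change was 0.83 (0.82 to 0.87 over the 4 pairs of libraries), against −0.17 over all regions tested. Over other settings it ran from 0.35 without scaling to 1.08 with only peaks of −log10 q of at least 10. With the 6 libraries alone, 883 were higher and 29 lower, against 21.7% and 37.1% of all regions tested. As deposited, both enterocyte libraries exceeded both E14.5 libraries in 814 regions and lay below both in 239, against 17.4% and 51.0% of all regions tested. Without scaling the fit called 484 (33.9%) higher and 79 (5.53%) lower, against 12.6% and 38.4% of all regions tested. The count of lower regions was 20 and 18 without E14.5 replicate 1 or 2, and 57 without enterocyte replicate 2.

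Between the adult cell types the direction depended on the scaling. With equal total covered length, enterocytes exceeded ISC in 563 regions (39.4%) and fell below ISC in 130 (9.10%), while 736 were not called. Over all regions tested, 14.54% were higher and 21.6% lower. The median log2 change was 0.40 (0.36 to 0.45 over the 4 pairs of libraries), against 0 over all regions tested. Over other settings it ran from −0.13 without scaling to 0.48 with 100 bp added. The 6 libraries alone gave 499 higher and 103 lower, against 16.0% and 23.9% of all regions tested. Without scaling the fit called 91 (6.37%) higher and 278 (19.5%) lower, against 7.47% and 29.0% of all regions tested, so the share called higher was then near that of all regions. As deposited, both enterocyte libraries exceeded both ISC libraries in 290 regions and lay below both in 547, against 11.0% and 42.2% of all regions tested. The count of lower regions was 85 without ISC replicate 1 and 85 without ISC replicate 2.

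**Figure D3:**
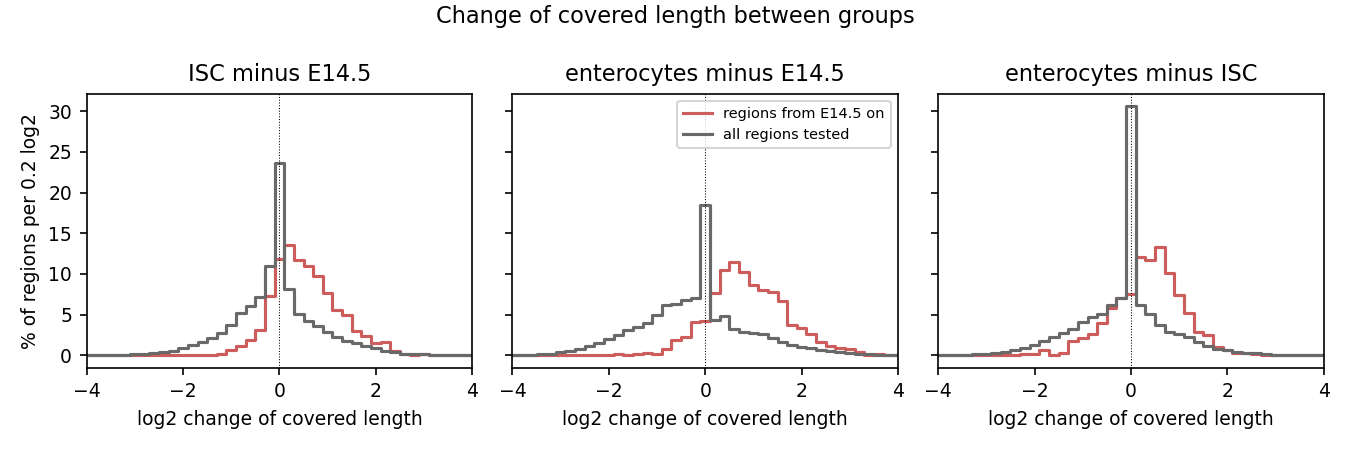
Share of regions (%, vertical axis) by log2 change of scaled covered length (horizontal axis, bins of 0.2) in the 3 comparisons, for the 1429 regions (red) and all 53123 regions tested (grey). The red medians are 0.47, 0.83 and 0.40 and the grey ones 0, −0.17 and 0; the grey spike at 0 holds regions at or near equal length, among them those without peaks in either group.

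Regions present in all 4 groups gave a view of the same comparisons without a change at E12.5. Of these 12282 regions, 991 (8.07%) were called higher and 784 (6.38%) lower in ISC than at E14.5, with a median log2 change of −0.02. Over all regions tested, 16.1% were higher and 19.7% lower. In enterocytes against E14.5, 2809 (22.9%) were higher and 1829 (14.9%) lower, with a median of 0.08, against 19.0% and 31.7% of all regions tested. In enterocytes against ISC, 2115 (17.2%) were higher and 1241 (10.1%) lower, with a median of 0.10, against 14.54% and 21.6% of all regions tested. The 1548 regions found in both adult cell types but in no embryonic library had 723 (46.7%) higher and 99 (6.40%) lower in enterocytes than in ISC, with a median of 0.47. The embryonic libraries add no spread to the fit of these regions. Their counts may therefore be overstated and are not on a par with those of the 12282 regions. The difference between these classes was not tested, since the peaks compared also define the classes.

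The 6 longest regions, by the smallest covered length in any of the 6 libraries, were broad at every stage from E14.5 on. A region of chromosome 17 (chr17:28948075-28956419) was covered over 5.31 and 4.57 kb at E14.5, then 6.76 and 8.31 kb in ISC, and 7.35 and 7.24 kb in enterocytes. One on chromosome 11 (chr11:115316387-115326435) had 4.47 and 4.41 kb at E14.5, then 8.81 and 9.93 kb in ISC, and 9.62 and 9.20 kb in enterocytes. In both, all 4 adult libraries exceeded both E14.5 libraries. The log2 change in enterocytes against E14.5 was 1.13 ± 0.0984 (SE, limma adjusted p = 0.000383) for the first and 1.61 ± 0.139 (SE, limma adjusted p = 0.000384) for the second.

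The other 4 of the longest regions lay on chromosomes 19, 2 and 18. On chromosome 19, chr19:55923078-55931013 had 5.29 and 4.17 kb at E14.5, then 7.04 and 7.92 kb in ISC, and 7.03 and 6.75 kb in enterocytes. On chromosome 18, chr18:85070586-85079953 had 4.02 and 3.83 kb at E14.5, then 6.15 and 8.37 kb in ISC, and 6.37 and 7.66 kb in enterocytes. Both were longer in each adult library than in either E14.5 library, with log2 changes in enterocytes against E14.5 of 1.11 and 1.36 (limma adjusted p = 0.00145 and 0.000293). The remaining 2 were closer to their E14.5 length. The region chr2:156950466-156956423 had 4.73 and 3.90 kb at E14.5, then 5.06 and 5.74 kb in ISC, and 4.88 and 5.01 kb in enterocytes. The region chr19:43854932-43861689 had 5.00 and 3.81 kb at E14.5, then 5.45 and 6.47 kb in ISC, and 5.64 and 5.61 kb in enterocytes. Their log2 changes in enterocytes against E14.5 were 0.77 and 0.93 (limma adjusted p = 0.00426 and 0.00182), and neither was called without scaling (0.18 with adjusted p = 0.256, and 0.33 with adjusted p = 0.112).

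Some regions had short coverage at E14.5 and broad coverage in ISC. The region chr10:94573607-94585946 had 0.683 and 0.329 kb at E14.5, then 9.96 and 12.3 kb in ISC, and 3.14 and 4.62 kb in enterocytes. The region chr13:59753802-59764930 had 0.622 and 0.461 kb at E14.5, then 8.04 and 11.1 kb in ISC, and 2.54 and 2.20 kb in enterocytes. The log2 changes in ISC against E14.5 were 3.44 ± 0.221 and 3.15 ± 0.0964 (SE, limma adjusted p = 0.000211 and 7.94e-05). Likewise chr6:147702782-147710689 had 0.381 and 0.328 kb at E14.5, then 6.06 and 7.91 kb in ISC, and 2.25 and 1.75 kb in enterocytes, with a log2 change in ISC against E14.5 of 2.99 (limma adjusted p = 8.51e-05). Its nearest E12.5 peak lay 277 kb away. In all of these the enterocyte lengths fell between those of E14.5 and ISC. At chr10:94573607-94585946 and chr13:59753802-59764930 no base was covered in all 6 libraries, so the widening of a single peak is not shown there. The strongest E14.5 peaks at chr10:94573607-94585946 were at percentiles 28.5 and 6.98 of their lists.

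Few regions were called in the reverse direction, with shorter coverage in ISC than at E14.5. The region chr1:82827507-82830212 had 2.65 and 2.31 kb at E14.5, then 0.278 and 0.245 kb in ISC, and 2.14 and 2.38 kb in enterocytes. Its enterocyte lengths thus lay near those of E14.5 while ISC kept a short peak, and the log2 change in ISC against E14.5 was −1.88 ± 0.108 (SE, limma adjusted p = 0.000147). The region chr8:118352850-118355061 had 2.16 and 1.88 kb at E14.5, then 0.407 and 0.490 kb in ISC, and 1.07 and 0.863 kb in enterocytes. The region chr2:167830266-167832890 had 2.62 and 2.40 kb at E14.5, then 0.396 and 1.17 kb in ISC, and 1.69 and 1.94 kb in enterocytes. Their log2 changes in ISC against E14.5 were −1.37 and −1.30 (limma adjusted p = 0.000364 and 0.00365). Neither was called when only peaks with −log10 q of at least 10 were kept (adjusted p = 0.0625 and 0.216).

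Other regions were short at E14.5 and in ISC and broad in enterocytes, or were lowest in ISC. The region chr19:21540394-21548881 had 0.515 and 0.289 kb at E14.5, then 0.510 and 1.01 kb in ISC, and 8.49 and 7.28 kb in enterocytes. Its enterocyte lengths lay far above all 4 other libraries with a peak. The log2 change was 3.75 ± 0.141 against E14.5 and 3.35 ± 0.141 against ISC (SE, limma adjusted p = 4.37e-05 and 7.3e-05). The region chr7:109110281-109114587 had 0.306 and 0.466 kb at E14.5, then 0.448 and 0.824 kb in ISC, and 4.17 and 3.78 kb in enterocytes, and its log2 change in enterocytes against ISC was 2.55 (limma adjusted p = 0.000115). A different course was seen at chr2:166027449-166032981, with 2.99 and 2.18 kb at E14.5, then 0.478 and 1.67 kb in ISC, and 4.76 and 5.38 kb in enterocytes. There ISC was the lowest of the 3 groups, and the log2 change in enterocytes against ISC was 2.53 (limma adjusted p = 0.000911).

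Covered length rose stepwise in 2 further regions. The region chr2:33214892-33223433 had 0.509 and 0.342 kb at E14.5, then 2.94 and 4.82 kb in ISC, and 8.22 and 7.37 kb in enterocytes. The region chr9:97037204-97045408 had 0.807 and 0.313 kb at E14.5, then 4.35 and 5.09 kb in ISC, and 8.11 and 7.84 kb in enterocytes. The groups did not overlap in either region, and the log2 changes in enterocytes against E14.5 were 3.70 and 3.58 (limma adjusted p = 3.86e-05 and 9.99e-05). At chr2:33214892-33223433 no base was covered in all 6 libraries, so the widening of a single peak is not shown there. Its strongest E14.5 peaks were at percentiles 19.1 and 4.98 of their lists.

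Some regions broad in ISC had short peaks in enterocytes. The region chr14:41737682-41746055 had 4.13 and 3.38 kb at E14.5, then 6.88 and 8.37 kb in ISC, and 0.478 and 0.308 kb in enterocytes. The log2 change in enterocytes was −1.87 ± 0.147 against E14.5 and −2.76 ± 0.147 against ISC (SE, limma adjusted p = 0.000271 and 0.000114). With only peaks of −log10 q of at least 10, the change against E14.5 was not called (adjusted p = 0.275). The region chr4:95599561-95606981 had 0.989 and 1.04 kb at E14.5, then 7.05 and 7.42 kb in ISC, and 0.953 and 0.414 kb in enterocytes, so that the broad form was seen in ISC. Its log2 change in enterocytes against ISC was −2.27 (limma adjusted p = 0.00227).

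The last 2 regions lower in enterocytes had E14.5 lengths above 3 kb. The region chr12:8783652-8791253 had 5.28 and 4.55 kb at E14.5, then 3.78 and 6.98 kb in ISC, and 0.243 and 1.17 kb in enterocytes. The region chr5:132288708-132292327 had 3.62 and 3.23 kb at E14.5, then 1.71 and 2.35 kb in ISC, and 0.336 and 0.959 kb in enterocytes. Their log2 changes in enterocytes against E14.5 were −1.86 and −1.41 (limma adjusted p = 0.0154 and 0.0107). Neither call held when E14.5 replicate 1 or 2 was left out. The adjusted p was then 0.0727 without replicate 1 and 0.0692 without replicate 2 on chromosome 12, and 0.0545 without replicate 1 and 0.0558 without replicate 2 on chromosome 5.

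The 4 regions whose peaks ranked highest in all 6 lists were 4.88, 2.35, 5.89 and 4.17 kb long, against a median of 2.46 kb over the 1429. At chr11:62435771-62440655 the strongest peak was at or above percentile 79.3 of each list, with 4.00 and 4.20 kb covered at E14.5, 3.62 and 4.82 kb in ISC, and 3.81 and 3.60 kb in enterocytes. ISC overlapped E14.5, and as deposited both enterocyte libraries lay below both E14.5 libraries by less than 1 kb. With scaled lengths, enterocytes were higher than E14.5 by 0.45 ± 0.105 on the log2 scale (SE, limma adjusted p = 0.0162), and without scaling the change was −0.13 (adjusted p = 0.492), so its direction depended on the scaling. The scaled call was also lost without E14.5 replicate 1 (adjusted p = 0.0794) and without enterocyte replicate 1 (adjusted p = 0.0791). The next 3 by this measure were chr9:107876655-107879005, chr11:72313546-72319431 and chr2:122481739-122485904, with lowest percentiles of 77.0, 76.9 and 76.3.

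Within a region, each later library covered most of the E14.5 bases and added others. Of the bases covered in either E14.5 library, 59.0% lay in the peaks of all 4 adult libraries. The part of the longer adult coverage in these shares was not tested. Of the bases that E14.5 peaks covered in the 1429 regions, 79.8% to 96.0% lay in the peaks of an ISC library and 78.3% to 80.9% in those of an enterocyte library. In the other direction, 40.7% to 55.7% of ISC bases and 45.3% to 53.5% of enterocyte bases lay in the peaks of an E14.5 library. For scale, replicates of 1 group held 69.9% to 99.1% of each other's bases, the widest gap being between the ISC replicates of unequal covered length. A base covered in all 6 libraries existed in 1314 regions (92.0%) and had a median extent of 0.511 kb per region. In the other 115 regions the 6 libraries had peaks with no base in common to all of them.

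The position of the strongest summit was shared less between groups than between replicates. Summits lay within 200 bp of each other in 67.7% of the regions for the E14.5 replicates, 71.9% for the ISC replicates and 65.2% for the enterocyte replicates. For pairs of libraries of different groups the share was 58.2% to 60.1% in ISC against E14.5, 52.1% to 54.02% in enterocytes against E14.5 and 58.4% to 61.1% in enterocytes against ISC. The median offset was 80 to 101 bp between replicates and 115 to 184 bp between groups. All 12 pairs from different groups had a lower share than all 3 replicate pairs, and the 4 pairs of enterocytes and E14.5 had the lowest.

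**Figure D4:**
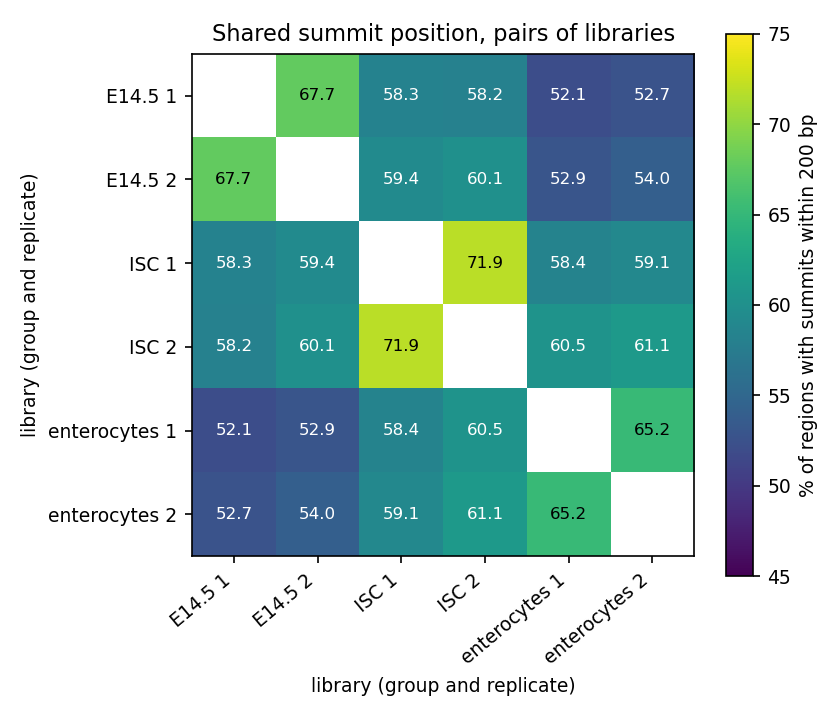
Share of the 1429 regions (%, colour and printed value) whose strongest summits lie within 200 bp, for each pair of the 6 libraries with peaks on both axes. Replicate pairs reach 65.2 to 71.9%, and enterocytes against E14.5 reach 52.1 to 54.02%.

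The regions arose in chromatin that often already had peaks nearby at E12.5. The nearest E12.5 peak of either library lay at a median of 8.47 kb, with an interquartile range of 3.09 to 19.6 kb. It was within 1 kb of 105 regions (7.35%), within 5 kb of 500 (35.0%) and within 20 kb of 1077 (75.4%), and 352 regions (24.6%) had none within 20 kb. Regions of E14.5 without adult peaks had a nearer median of 6.64 kb, with 19.8% within 1 kb. Their distances also reached further, and 28.7% had none within 20 kb. Adult-only regions lay at a median of 9.86 kb with 4.72% within 1 kb, and 30.1% had none within 20 kb. E12.5 peaks took part in the choice of these classes, so the distances are given as a description.

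Peaks in the 20 kb on either side of a region also rose from E12.5 to enterocytes when set against a library's covered length. Unlike the regions, these flanks had peaks at E12.5. Peaks in these flanks, the 1429 regions left out, were summed region by region and set against all covered length of the library. A peak near several regions was counted for each, so the percentages are not shares of distinct territory. The sums came to 6.24% and 6.46% in the E12.5 libraries and 8.48% and 8.52% at E14.5. They were 10.5% and 11.1% in ISC, and 15.6% and 14.4% in enterocytes. Each later pair lay above each earlier pair in this relative measure. The lists it is set against covered 38.8 Mb in each enterocyte library and 51.2 and 76.1 Mb in ISC. The part of list size in this rise was not tested. The covered length per flank had a median of 1.13 and 1.81 kb at E12.5, then 2.72 and 2.41 kb at E14.5, then 2.74 and 4.84 kb in ISC, and 3.18 and 2.87 kb in enterocytes. In kb, ISC replicate 1 was thus near E14.5, and the enterocyte medians lay between those of the ISC replicates. The same sums for the flanks of the 1548 adult-only regions, those regions left out, took a like course. They came to 5.95% and 6.00% at E12.5, 7.44% and 7.40% at E14.5, 11.3% and 11.6% in ISC, and 16.5% and 15.5% in enterocytes. For the flanks of the 1036 regions kept in ISC alone the sums were 4.58% and 4.63% at E12.5 and 6.11% and 6.18% at E14.5. They were 6.94% and 7.14% in ISC, and 4.65% and 4.79% in enterocytes. The sums also depend on how closely the regions of a class lie, so their sizes are not compared between classes.

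Most regions shared their 100 kb window with no other region of this set. They were not isolated from other peaks. In the E14.5 and adult libraries, 81.6% to 91.7% of the regions had another peak within 20 kb. Windows with fixed starts can also split neighbouring regions. In windows of 100 kb counted from the start of each chromosome, 988 windows held 1 region, 131 held 2, 49 held 3, 5 held 4, 1 held 5 and 1 held 7. The window with 7 was chromosome 3, 3600001 to 3700000, and the window with 5 was chromosome 1, 129100001 to 129200000. Some regions in them lie less than 1 kb apart, such as chr3:3626189-3628236 and chr3:3628260-3630213, or chr1:129138579-129143882 and chr1:129143953-129148585. Merging peaks within 1 kb gave 1096 regions in place of 1429, so close neighbours need not be separate elements.

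The 7 regions of the chromosome 3 window were of similar length at E14.5 and in ISC, with 1 exception. Peaks at chr3:3633354-3636647 covered 2.30 and 2.50 kb at E14.5, then 2.36 and 2.47 kb in ISC, and 3.16 and 2.74 kb in enterocytes. At chr3:3612102-3614863 they covered 1.72 and 2.24 kb at E14.5, then 2.12 and 2.71 kb in ISC, and 1.72 and 1.31 kb in enterocytes. ISC and E14.5 overlapped in both. Of the 7, chr3:3628260-3630213 was called in ISC against E14.5, with 1.52 and 1.75 kb at E14.5, then 0.271 and 0.868 kb in ISC, and 1.48 and 1.09 kb in enterocytes. Its log2 change was −1.06 ± 0.221 (SE, limma adjusted p = 0.0152), and it was not called without E14.5 replicate 2 (adjusted p = 0.0897) or without ISC replicate 1 (adjusted p = 0.0603). The other 6 were not called in that comparison.

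In the chromosome 1 window the regions were broadest in ISC with 1 exception. The region chr1:129122770-129133629 had 2.15 and 1.90 kb at E14.5, then 8.68 and 10.9 kb in ISC, and 2.12 and 2.80 kb in enterocytes. The region chr1:129138579-129143882 had 1.19 and 0.601 kb at E14.5, then 3.82 and 5.28 kb in ISC, and 0.221 and 0.294 kb in enterocytes. The region chr1:129152241-129159339 had 1.86 and 1.39 kb at E14.5, then 6.21 and 7.10 kb in ISC, and 2.74 and 2.56 kb in enterocytes. In all of these both ISC libraries exceeded every other library. At chr1:129138579-129143882 no base was covered in all 6 libraries. The log2 changes in ISC against E14.5 were 1.95, 1.80 and 1.69 in this order (limma adjusted p = 0.000303, 0.000789 and 0.000431), and the second fell in enterocytes against ISC by 2.35 on the log2 scale (limma adjusted p = 0.000298).

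The exception, chr1:129143953-129148585, had 0.408 and 0.244 kb at E14.5, then 2.98 and 4.34 kb in ISC, and 3.95 and 4.03 kb in enterocytes. Its log2 change in ISC against E14.5 was 2.20 (limma adjusted p = 8.02e-05). As deposited, its length in enterocytes was within the range of ISC. With scaled lengths, enterocytes were higher than ISC by 0.74 on the log2 scale (limma adjusted p = 0.00181), and this was not called without scaling (0.13, adjusted p = 0.769). It directly follows chr1:129138579-129143882, which was short in enterocytes. The fifth, chr1:129171371-129173911, had 1.57 and 1.45 kb at E14.5, then 2.50 and 2.51 kb in ISC, and 1.08 and 1.45 kb in enterocytes, and was not called in ISC against E14.5 (log2 change 0.54, limma adjusted p = 0.0806).

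**Figure D5:**
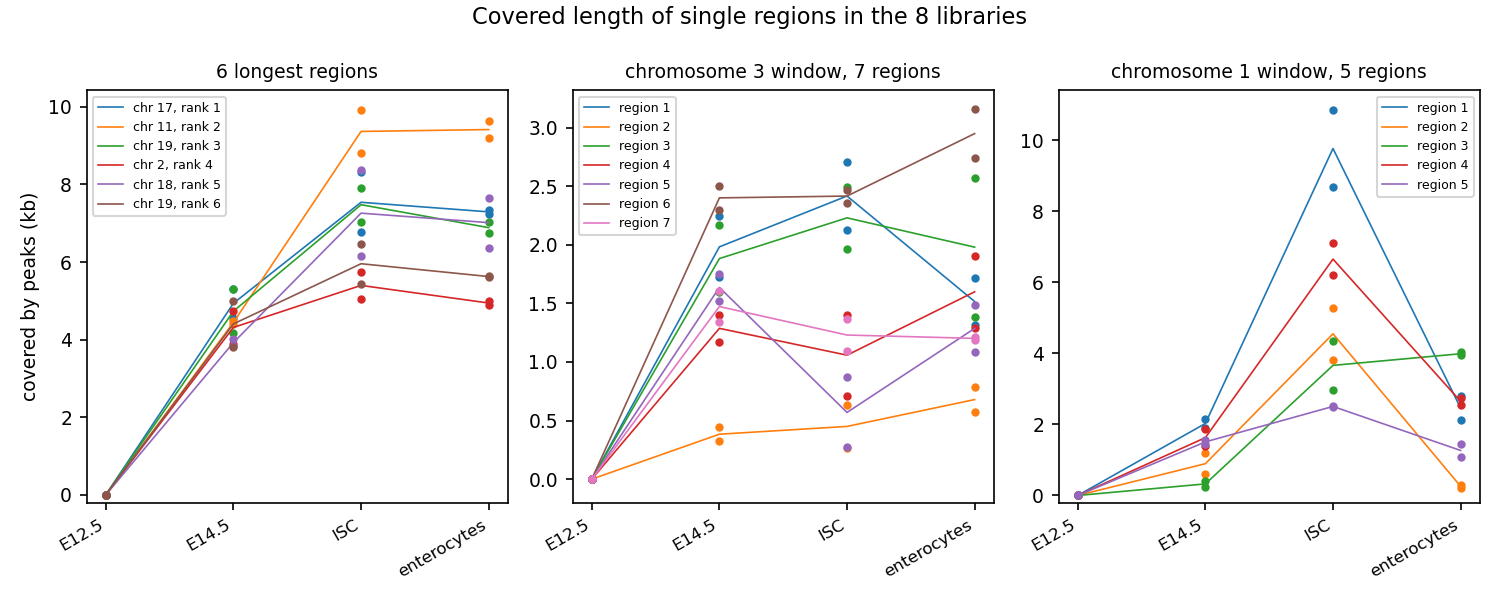
Length covered by peaks (kb, vertical axis) in each group for the 6 longest regions and for the regions in the chromosome 3 and chromosome 1 windows, numbered by position. Points are libraries and lines join the means of 2; the longest regions stay at 3.81 kb or more in all 6 libraries, and 4 of 5 regions of the chromosome 1 window peak in ISC.

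The rule has a sharp edge at E12.5. A further 788 regions had peaks in all 6 later libraries and in 1 E12.5 library, 733 of them in replicate 2 and 55 in replicate 1. E12.5 replicate 2 covered 59.99 Mb and replicate 1 covered 43.6 Mb. In the 733 the E12.5 peak had a median covered length of 0.476 kb and a median percentile of 27.9, and in 71 (9.69%) it was at or above the 50th percentile. Without E12.5 replicate 2 the rule takes 2162 regions in place of 1429. The longest regions just outside were chr8:97301635-97310883, with 0.228 and 0 kb at E12.5, then 6.00 and 6.05 kb at E14.5, then 5.87 and 7.93 kb in ISC, and 9.25 and 8.54 kb in enterocytes, and chr4:59251213-59259420, with 0 and 0.822 kb at E12.5, then 4.82 and 4.62 kb at E14.5, then 5.82 and 8.13 kb in ISC, and 7.95 and 7.67 kb in enterocytes.

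At the other edge, 870 regions had no E12.5 peak and were in 5 of the 6 later libraries. The shortest coverage that still counted was 0.207 kb in ISC replicate 1, at chr10:74592331-74596835 and at chr3:107930257-107932107. The first had 0.544 and 0.821 kb at E14.5, then 0.207 and 2.73 kb in ISC, and 4.36 and 4.31 kb in enterocytes, so its ISC libraries differed widely. The second had 0.710 and 0.293 kb at E14.5, then 0.207 and 0.285 kb in ISC, and 1.81 and 1.16 kb in enterocytes.

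The 733 regions with a peak in E12.5 replicate 2 alone leaned the same way as the 1429, with smaller medians. In ISC against E14.5 the 6 libraries alone called 194 (26.5%) higher and 33 lower, with a median log2 change of 0.25, against 18.1% and 23.8% of all regions tested. In enterocytes against E14.5 they called 381 (52.0%) higher and 41 lower, with a median of 0.60, against 21.7% and 37.1% of all regions tested. In enterocytes against ISC they called 257 (35.1%) higher and 58 lower, with a median of 0.37, against 16.0% and 23.9% of all regions tested. These values come from the fit without E12.5, in which both sets are treated alike. In that fit the medians of the 1429 regions were 0.47, 0.83 and 0.40.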

How the data were processed

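H3K27ac ChIP-seq peak lists of 8 libraries were used; their 8 inputs served the authors' peak calling. The submitters' processing notes name build mm9 and the tools Bowtie 1.1.2, SAMtools 1.2, MACS2 and bcl2fastq 1.8.4. Per the file headers, MACS 2.1.0.20140616 called narrow peaks in each library against its own input at a q-value threshold of 0.05, with 51 bp tags and 1 tag kept per position. The deposited lists give positions, the fold enrichment ratio, the summit pileup as a coverage signal, and −log10 of p and of q for each peak. They are the authors' values, and peaks were ranked and filtered by them inside 1 list at a time. Read counts per region were not used, so precision rests on the 2 libraries per group, and p-values reflect the spread among these libraries.

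Covered length per merged region was scaled to the mean total covered length and fitted as log2(bp + 500) with limma 3.58.1 in R 4.3.3 (lmFit, eBayes with trend and robust), with 4 group means and 4 residual degrees of freedom. Changes on this scale understate those of short regions. The scripts were tested on simulated data. Named regions are the 6 longest, up to 3 per direction and comparison with the largest called change whose libraries did not overlap, the 4 with the highest lowest percentile, those of the 2 fullest 100 kb windows, and the 2 with the smallest coverage, plus 2 near misses. These are 39 distinct regions besides the near misses. The members and lists were chosen with earlier results of these data known. Alternatives covered scaling, the added bp, the q threshold, the overlap, equal list sizes, left-out libraries and a replicate block.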

Additional observations from a re-analysis of the deposited data

How the results depend on the processing

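The number of regions was 911 with only peaks of −log10 q of at least 10 and 1096 with peaks merged within 1 kb. It was 207 when peaks had to cover at least 50% of a region, and leaving out 1 library gave 1431 to 2162. Without scaling, members called lower in ISC against E14.5 numbered 13 (0.910%), against 17.0% of all regions tested. Those in enterocytes against E14.5 were 484 higher and 79 lower, against 12.6% and 38.4% of all regions tested. Those in enterocytes against ISC were 91 higher and 278 lower, against 7.47% and 29.0% of all regions tested. The median log2 change in enterocytes against ISC was then −0.13, the reverse of the scaled value, while that of all regions was −0.26; in enterocytes against E14.5 it was 0.35, against −0.39 over all regions. With −log10 q of at least 10, 66 (4.77%) were lower in enterocytes against E14.5, against 27.7% of all regions tested. In enterocytes against ISC 368 (26.6%) were higher, against 13.1% of all regions tested. Leaving out 1 library, with the remaining library assumed to vary like the other groups, gave 462 to 652 higher and 14 to 58 lower in ISC against E14.5. The ranges were 777 to 966 higher and 18 to 57 lower in enterocytes against E14.5, and 393 to 549 higher and 85 to 148 lower in enterocytes against ISC. Of the 71 counts under other settings, 62 were within 1.5 times the reported one. Among 665 values of the named regions, 20 lost the call under the planned settings and 1 under an added one. A single value reversed, the change of chr11:62435771-62440655 in enterocytes against E14.5, to −0.13 without scaling. The cause of these changes was not tested.

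The correlations of same-numbered deviations ran from −0.14 to 0.13, so no effect shared by replicate number was seen. With 2 libraries per group and lengths scaled to equal totals, this cannot show that the samples were unpaired. With the replicate block, 569 regions (39.8%) were higher and 34 (2.38%) lower in ISC against E14.5, against 15.3% and 18.6% of all regions tested. In enterocytes against E14.5 there were 916 (64.1%) and 31 (2.17%), against 18.3% and 30.6%. In enterocytes against ISC there were 520 (36.4%) and 114 (7.98%), against 13.5% and 20.6%. Exchanging the numbers of E14.5 and enterocytes, a choice made after seeing the data, gave 605 (42.3%) higher and 33 (2.31%) lower in ISC against E14.5. Over all regions tested the shares were then 15.9% and 19.6%. A peak under the calling threshold in both E12.5 libraries counts as absent, and the effect of depth on these calls was not tested.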

Other observations

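The regions were spread over all autosomes and chromosome X, with 0 on chromosome Y. Chromosome 11 held the most, 112 of its 5726 merged regions (1.96%). The share ran to 2.21% on chromosome 18, where 56 were found, and was lowest on chromosome X, with 19 regions (1.12%). Regions present in all 4 groups made up 15.3% of the merged regions on chromosome X and 15.5% over the genome.

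At E14.5 a region was covered by a single peak in 60.7% and 58.9% of cases in replicates 1 and 2. This share was 53.5% and 81.2% in ISC, and 52.7% and 53.1% in enterocytes. The ISC replicates stood apart here, and replicate 2, which covered 76.1 Mb, had mostly single long peaks.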
